A study of Mus musculus with 6 samples.

Results

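Small leucine-rich proteoglycans are secreted matrix proteins that sit on collagen fibrils. Their curved core of leucine-rich repeats binds collagen, and in most of them chains of sulfated sugars are attached to the core. In the mammary gland they are made mainly by fibroblasts of the stroma, where they help to set the spacing and thickness of fibrils and hold growth factors in the matrix. The 8 genes described here were taken by name: *Dcn* (decorin), *Bgn* (biglycan) and *Aspn* (asporin) of class I, *Lum* (lumican), *Fmod* (fibromodulin), *Prelp* (the proline- and arginine-end leucine-rich repeat protein) and *Omd* (osteomodulin) of class II, and *Ogn* (osteoglycin) of class III. A probe set, the group of short oligonucleotides that reads a transcript on the array, was counted for a gene if the platform annotation gave it that gene symbol alone. All 8 genes had at least 1 such probe set, 19 of 45037 in all, among 18193 genes with a single symbol.

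The samples were 3 mammary tumors of acinar histology from *K14-cre*; ApcCKO/+ mice, which carry 1 floxed and 1 wild-type copy of the tumor suppressor *Apc* and were of a mixed strain background. By the study's own account the other *Apc* copy of these tumors held a truncating mutation. The keratin 14 promoter drives Cre in skin and in embryonic precursors of basal and luminal mammary cells, so that the floxed copy loses an exon there. These tumors were compared with 3 control mammary glands from age-matched mice without *cre*. Neither the age in months nor the strain background and *Apc* genotype of the controls is given in the sources used here. RNA of each sample was put on 1 Affymetrix M430 2.0 array, and the labels call the 3 samples of a group biological replicates without naming the animals, so the p-values measure only the spread between these samples.

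The values are MAS 5.0 signals, linear intensities that had been brought to a common target on each array. Signals below 50 were raised to 50 before log2 was taken, and the 26967 probe sets that reached 100 on 3 or more arrays were tested with limma. A gene was read by its brightest probe set, which left 12518 genes, and was called lower or higher in tumors if its p, adjusted over them by the Benjamini-Hochberg method, was under 0.05. The median signal was between 124.4 and 138.3 on the tumor arrays and between 132.7 and 170.7 on the control arrays, and 54.3% to 56.6% of probe sets reached 100 in tumors, against 55.8% to 61.5% in control glands. The best measured probe set of the targeted gene *Apc* had signals of 1922.9, 1525.9 and 2006.1 in tumors, against 1922.4, 2076.9 and 2148.9 in control glands, a log2 fold change of −0.18 (adjusted p = 0.597), but whether it lies in the deleted exon is not known here, so it checks no label. Epithelial markers had a median log2 fold change of 1.98, with 7 of 11 higher, 1 lower and 3 that did not pass.

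Of the 8 proteoglycan genes, 7 passed the filter on low signals and were tested. *Prelp*, *Lum*, *Ogn*, *Dcn* and *Bgn* were lower in tumors, none was higher (0 also at an unadjusted p under 0.05), and *Aspn* and *Fmod* did not pass the test. Over all genes tested 16.8% were called lower and 16.3% higher. For the same 5 members every tumor lay below every control gland, as was the case for 23.1% of all genes. The median log2 fold change of the 7 tested members was −3.28, against 0.07 over all genes, and 2.80% of all genes had a log2 fold change of −3 or below. No member passed the filter through 1 group alone, whereas 411 of the 2098 genes called lower reached 100 only in the control glands and 151 of the 2045 called higher only in the tumors. Such a gene entered the test because it was high in that group. In whole-tissue RNA, fewer cells of a type and less RNA per cell cannot be told apart.

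**Figure D1:**
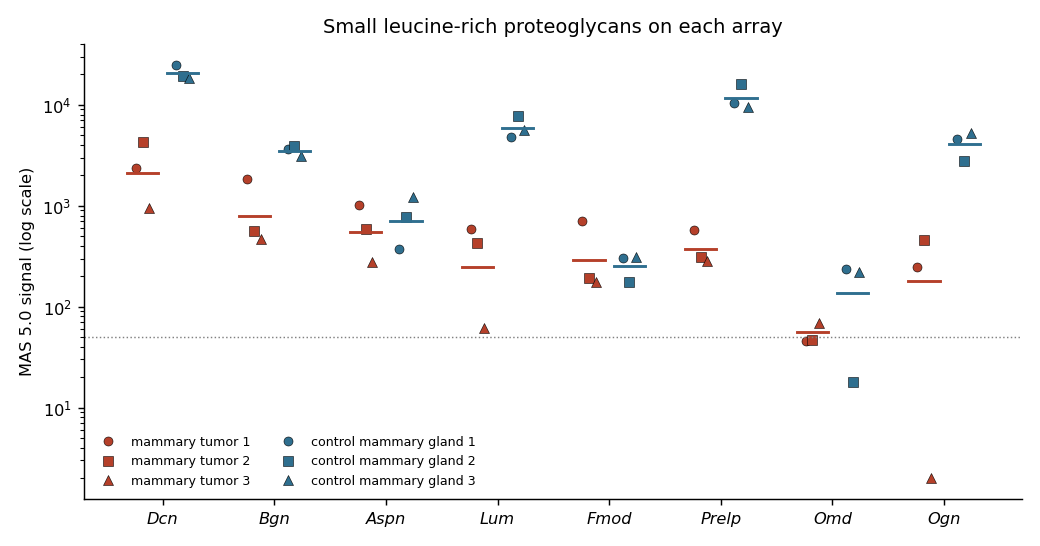
MAS 5.0 signal (log scale) of the 8 small leucine-rich proteoglycan genes on each of the 3 tumor and 3 control gland arrays, with a bar at the geometric mean after the floor of 50 (dotted line). The 5 genes *Dcn*, *Bgn*, *Lum*, *Prelp* and *Ogn* have every tumor below every control gland, while the groups overlap for *Aspn*, *Fmod* and *Omd*.

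Class I holds the proteoglycans closest to decorin. *Dcn*, which carries a single chondroitin or dermatan sulfate chain and binds collagen and TGF-β, had signals of 2354.8, 4291.2 and 951.5 in tumors, against 24976.8, 19325.8 and 18379.4 in control glands. The highest tumor stood well below the lowest control gland, and tumor 3 was lowest. With limma this gave a log2 fold change of −3.28 (standard error 0.51, n = 3 each, adjusted p = 0.00341), a ratio of geometric means of 9.74-fold. *Bgn*, the close relative of decorin whose free fragments are known as ligands of Toll-like receptors, had signals of 1861.1, 564.1 and 467.2 in tumors, against 3615.3, 3901.9 and 3077 in control glands. By this probe set tumor 1 was clearly above the other 2 tumors, and the control glands were close together. Another *Bgn* probe set also had tumor 1 highest (1296.1, 578.2 and 307.2), but in the last (444.5, 455.4 and 206.5) tumor 1 was not above tumor 2. *Bgn* differed by −2.16 on the log2 scale with a standard error of 0.50 (adjusted p = 0.0159), or 4.46-fold. Without tumor 2 it was −1.91 and did not pass (adjusted p = 0.0593). *Aspn*, which binds collagen and TGF-β and lacks the sugar chain of its relatives, had signals of 1023.2, 595.2 and 278.1 in tumors, against 370, 765.9 and 1210.1 in control glands. The groups covered nearly the same range, and the log2 fold change was −0.34 (95% interval −1.68 to 1.00, adjusted p = 0.682).

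Class II holds the proteoglycans that can carry keratan sulfate, together with *Prelp*. *Lum*, which regulates fibril thickness and tissue transparency in the cornea and is also made by fibroblasts of skin and breast, had signals of 587.2, 427.4 and 62 in tumors, against 4770, 7677.8 and 5686.5 in control glands. Tumor 3 was close to the floor, far below the other two tumors, and no group values overlapped. This was a log2 fold change of −4.57 with a standard error of 0.78 (adjusted p = 0.00497), or 23.7-fold. *Prelp*, whose positively charged end binds heparan sulfate and which links basement membranes to the collagen beneath, had signals of 575.8, 311.3 and 284.3 in tumors, against 10415.4, 16130.5 and 9591.4 in control glands. By this probe set the tumors lay closest together of the 5 lower members, within 1.02 on the log2 scale. The second *Prelp* probe set had 170.3, 29.1 and 6.1 in tumors. The log2 fold change of −4.98 had a standard error of 0.34 (adjusted p = 0.000175). It corresponds to 31.6-fold and was rank 49 of 12518 genes ordered from the most negative fold change.

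*Fmod*, the collagen-binding neighbour of lumican in the family, known best from tendon, had signals of 703.4, 193.3 and 175 in tumors, against 302, 174.5 and 307.6 in control glands. Tumor 1 was the highest of the 6 samples, and the other two tumors lay among the control glands. The log2 fold change was 0.18 (95% interval −1.10 to 1.46, adjusted p = 0.820), so neither a fall nor a rise of about 2-fold lies outside the interval. The intervals of *Prelp*, −5.79 to −4.18, and of *Fmod* did not overlap. *Omd*, found mainly in bone and teeth, was read by 1 probe set that failed the filter and was not tested. Its signals were 45.5, 47.2 and 68.5 in tumors, against 234.5, 18 and 220.6 in control glands, so that 2 control glands stood above the tumors and control gland 2 below all of them.

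*Ogn*, the class III member, also called mimecan, had signals of 246.4, 457.7 and 2 in tumors, against 4634, 2764.3 and 5255.1 in control glands. The signal of 2 in tumor 3 is below the floor and was read as 50. With that, the log2 fold change of −4.51 had a standard error of 0.75 (adjusted p = 0.00451), or 22.9-fold. Without tumor 3 it was −3.60 (adjusted p = 0.00303).

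Among themselves the members differed in how the tumors spread. Read by its brightest probe set, each of the 7 tested members was lowest in tumor 3 among the tumors. By the same probe sets, *Dcn* and *Ogn* were highest in tumor 2, and *Lum*, *Prelp*, *Bgn*, *Aspn* and *Fmod* in tumor 1. The further probe sets of *Bgn*, *Ogn*, *Prelp* and *Aspn* were also lowest in tumor 3. The second *Dcn* probe set (78.9, 12 and 89.7 in tumors 1 to 3) was lowest in tumor 2, as were some of *Fmod*. The range over the 3 tumors was 3.24 on the log2 scale for *Lum* and 3.19 for *Ogn*, with the tumor 3 value of *Ogn* at the floor, and 2.17 for *Dcn*. Over the 3 control glands the range was 0.34 for *Bgn* and 0.44 for *Dcn*, and 1.71 for *Aspn*, the least even of the tested members in control glands. The array of tumor 3 also had the lowest mean of the fibroblast markers and of the collagen list described further on, and the lowest median signal of the 6 arrays.

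**Figure D2:**
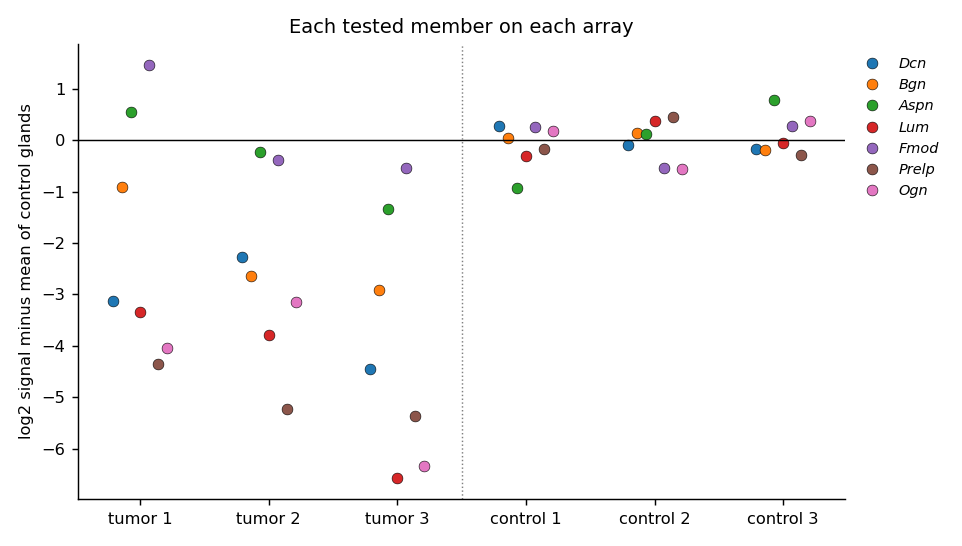
Log2 signal of each tested member on each array minus the mean of its 3 control glands, with tumors left and control glands right. *Lum* and *Ogn* lie lowest in tumor 3, *Prelp* lies lowest of the 7 in tumors 1 and 2, and *Aspn* and *Fmod* lie above the other 5 members in each tumor.

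Several members are read by more than 1 probe set, which shows whether a call rests on the probe set chosen. Of the 17 member probe sets that passed the filter, 10 were lower in tumors and 0 were higher, in a fit over all 26967 probe sets of which 14.6% were called lower. The 3 *Bgn* probe sets had log2 fold changes of −2.16, −2.22 and −3.23. The pair for *Dcn* gave −3.28 and −2.41, the pair for *Ogn* −4.51 and −4.39, and the pair for *Prelp* −4.98 and −4.97, each called lower. The second *Dcn* probe set reached 100 in the control glands alone. *Aspn* had −0.34 and −1.16 (adjusted p = 0.697 and 0.263), with overlapping groups in both. Of 6 *Fmod* probe sets 5 were tested, with log2 fold changes from −0.20 to 0.79, and none was called. The highest of these, with 433, 172.1 and 315.9 in tumors against 172.1, 146.2 and 181.3 in control glands, was the *Fmod* probe set with no mark for possible cross-hybridization (adjusted p = 0.138).

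**Figure D3:**
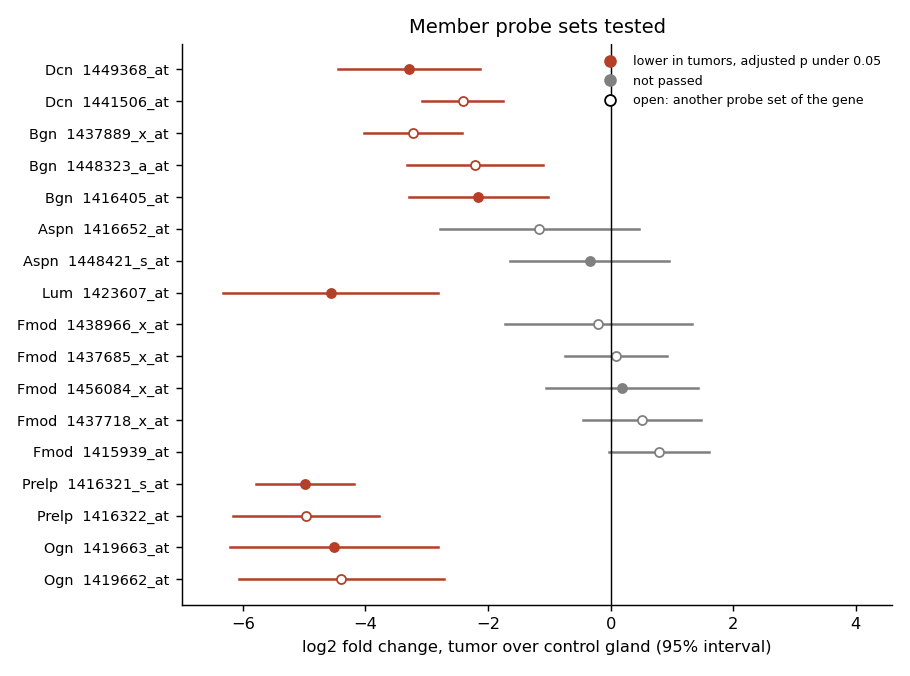
Log2 fold change of tumors over control glands for the 17 member probe sets tested, with 95% intervals from limma; filled points stand for the gene elsewhere in the text. The 10 probe sets of *Dcn*, *Bgn*, *Lum*, *Prelp* and *Ogn* lie left of 0 with intervals that do not reach it, and the intervals of the 7 *Aspn* and *Fmod* probe sets cross 0.

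The family's genes lie in small clusters, and calls differed within the clusters of chromosomes 1 and 13. In the GRCm38 assembly *Prelp* (chromosome 1, 133910304 to 133930102) and *Fmod* (134037254 to 134048280) are 107 kb apart, and of these *Prelp* was lower and *Fmod* did not pass. *Optc*, the opticin gene of the eye, lies 0.615 kb before *Prelp* and stayed below the filter. On chromosome 13, *Aspn* (49544443 to 49567565), *Omd* (49582462 to 49592612) and *Ogn* (49608015 to 49624501) lie in a row with gaps of 14.9 kb and 15.4 kb, and of these *Ogn* alone was called. *Ecm2*, a leucine-rich matrix gene 11.7 kb before *Aspn*, had 5, 26.9 and 5.3 in tumors, against 145.9, 199.5 and 164.9 in control glands. As each of its tumors was below 50, it was at least 3.37-fold lower (adjusted p = 0.00118), but it passed the filter through the control glands alone. On chromosome 10, *Dcn* (97479500 to 97518163) and *Lum* (97565501 to 97572703), 47.3 kb apart, were both lower. Next to them, *Kera*, the keratocan gene of the cornea, had signals of 4.9 to 10.8 in tumors and 2.5 to 6.7 in control glands, below the filter, and *Epyc*, known from cartilage, had 73.6, 66.5 and 47.6 in tumors, against 171.2, 189.9 and 138.9 in control glands, a log2 fold change of −1.40 (adjusted p = 0.00506), and it too passed through the control glands alone. *Bgn* lies away from these clusters on chromosome X (73483601 to 73495936). In tests chosen after the values were seen, the change of a member was set against that of another in 4 pairs. The log2 fold change of *Prelp* differed from that of *Fmod* by −5.17, and *Ogn* differed from *Aspn* by −4.18 (2-sided exact permutation p = 0.1 for each, 0.2 adjusted over the 4 pairs). *Lum* differed from *Dcn* by −1.29 (exact p = 0.2, adjusted 0.267) and *Dcn* from *Bgn* by −1.13 (exact p = 0.4, adjusted 0.4). With 3 samples a group 0.1 is the smallest p, so this test could not pass for any pair and says nothing for or against a difference.

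**Figure D4:**
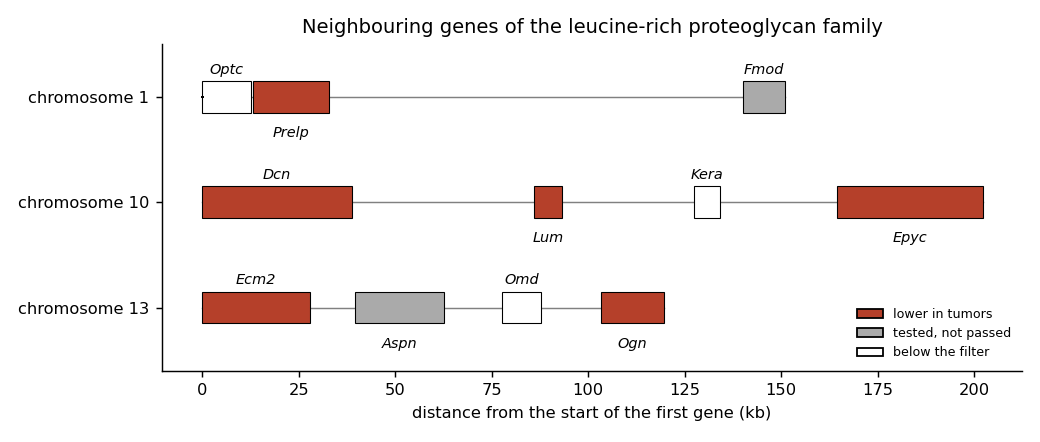
Gene bodies of the family on chromosomes 1, 10 and 13, drawn to scale as the distance in kb from the start of the first gene of each cluster and filled by the call in tumors against control glands. *Prelp* and *Fmod*, 107 kb apart, differ in their call, as do *Ogn* and *Aspn*, while *Dcn* and *Lum* are both lower.

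Promoter sequence was at hand from RefSeq for 6 of the 8 members, all but *Dcn* and *Lum* (build GRCm38.p6). Each window runs from 250 bases before to 50 bases after a transcript start, and the neighbours with different calls are shown. The windows of *Fmod*, *Ogn* and *Aspn* lie at the start of the gene span given above. That of *Prelp* lies at a transcript start inside its gene span, so it is not of the same kind as the others. Capitals mark the letters TATAAA and CCAAT on either strand, so that a match on the opposite strand reads TTTATA or ATTGG.
Prelp, lower in tumors, chr1:133921352-133921651, minus strand: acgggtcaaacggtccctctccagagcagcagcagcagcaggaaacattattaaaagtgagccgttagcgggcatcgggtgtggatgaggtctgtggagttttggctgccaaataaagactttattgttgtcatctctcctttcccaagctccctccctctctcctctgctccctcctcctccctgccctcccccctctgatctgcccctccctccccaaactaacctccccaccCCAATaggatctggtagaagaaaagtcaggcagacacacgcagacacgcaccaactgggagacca
Fmod, not passed, chr1:134037004-134037303, plus strand: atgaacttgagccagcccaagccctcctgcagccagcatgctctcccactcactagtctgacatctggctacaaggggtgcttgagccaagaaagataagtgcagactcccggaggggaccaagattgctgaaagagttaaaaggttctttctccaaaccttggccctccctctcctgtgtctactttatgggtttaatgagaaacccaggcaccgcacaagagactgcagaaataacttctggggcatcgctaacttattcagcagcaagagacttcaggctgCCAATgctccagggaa
Ogn, lower in tumors, chr13:49607765-49608064, plus strand: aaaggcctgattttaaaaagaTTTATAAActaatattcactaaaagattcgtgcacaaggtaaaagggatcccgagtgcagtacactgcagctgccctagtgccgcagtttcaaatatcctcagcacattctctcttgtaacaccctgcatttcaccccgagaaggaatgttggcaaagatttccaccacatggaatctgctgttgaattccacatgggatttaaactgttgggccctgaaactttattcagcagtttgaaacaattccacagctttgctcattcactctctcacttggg
Aspn, not passed, chr13:49544193-49544492, plus strand: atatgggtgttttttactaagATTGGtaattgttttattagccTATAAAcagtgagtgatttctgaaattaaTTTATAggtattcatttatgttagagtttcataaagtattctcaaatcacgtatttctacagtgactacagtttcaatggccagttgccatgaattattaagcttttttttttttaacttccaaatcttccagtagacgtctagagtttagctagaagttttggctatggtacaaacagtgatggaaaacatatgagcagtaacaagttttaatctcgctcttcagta

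In these windows *Prelp* and *Fmod* each hold the second of these motifs once, with its first letter at base −15 for *Prelp* and at base 35 after the start for *Fmod*. *Ogn* and *Aspn* each hold the first motif on both strands, with first letters at bases −229 and −227 for *Ogn*, where both copies overlap, and at −207 and −178 for *Aspn*, which also holds the second motif at −229. Of all 32851 RefSeq promoter windows of this length, 13.6% hold the first motif and 37.4% the second. The letters GGGCGG of the GC box, found in 35.7% of windows, were present in *Bgn* alone of the 6 members, 3 times. *Bgn* also had the highest share of G and C of the 6, 63.7%, against 31.0% in *Aspn* and a median of 52.7% over all windows.

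The E box letters CANNTG, found in 72.3% of all windows, were present in *Prelp*, *Fmod*, *Aspn*, *Ogn* and *Bgn*. The letters of the AP-1 site, TGANTCA, were found in 7.81% of all windows and in none of the 6 members. The same held for a TCF/LEF site with the letters ATCAAAG, found in 3.73% of all windows. Both strands were searched for each motif, and no motif was held by each of *Prelp*, *Ogn* and *Bgn* and missing from both *Aspn* and *Fmod*. As *Dcn* and *Lum* had no sequence and the *Prelp* window lies inside its gene, this says nothing on the lower members as a set.

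Of 10 other genes of the family, 4 passed the filter, and *Ecm2*, *Podn* and *Epyc* were lower, of which *Podn* alone also reached 100 in tumors. *Podn*, podocan, a collagen-binding inhibitor of smooth muscle cell growth, had 170.1, 191.6 and 206.1 in tumors, against 445, 597.1 and 612.2 in control glands, a log2 fold change of −1.53 (adjusted p = 0.00253). Here the tumors were close together, and well under the control glands. *Nyx*, nyctalopin of the retina, differed by 0.13 on the log2 scale (adjusted p = 0.702) at signals near the filter. *Kera*, *Optc*, *Chad* and *Chadl* were below the filter, and *Podnl1* and *Tsku* had no probe set with a single symbol. With any of the control glands left out, 1 gene of this list was called, as *Ecm2* and *Epyc* then failed the filter.

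Of 17 tested fibrillar collagens and fibril-associated genes, 13 were lower, 1 was higher and 3 did not pass, with a median log2 fold change of −2.61. *Loxl1*, which cross-links elastin and collagen, was lower by −4.09 on the log2 scale (adjusted p = 0.00258), *Col5a1*, a chain of the collagen that starts fibrils, by −3.56 (adjusted p = 0.00544), and *Tnxb*, the fibril-bridging tenascin X, was at least 13.2-fold lower, with each tumor below 50, so that it passed the filter through the control glands alone. *Col1a1*, the main fibril chain, had signals of 786, 70.9 and 17.6 in tumors, against 889.6, 2336.6 and 1720.4 in control glands (log2 fold change −3.44, adjusted p = 0.0331). Tumor 1 lay close to the lowest control gland here. *Col11a1*, the fibril chain of cartilage, was higher, with 594.6, 512.5 and 307.1 in tumors, against 130.7, 84.3 and 74.7 in control glands (log2 fold change 2.28, adjusted p = 0.00269). It is named as the 1 higher gene of the list and was chosen after its values were seen. *Col14a1* had −0.47 (adjusted p = 0.758) and *Matn2* 0.16 (adjusted p = 0.813). With 1 array left out in turn the number of lower genes in this list was 5 to 14, the lowest without control gland 3, and it was 7 without tumor 2 and 7 without control gland 2. *Col1a1* was among those lost in each of these fits, and *Col5a1* was lost without control gland 3.

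Of 7 tested proteases that process or cleave small proteoglycans, 6 were lower and *Mmp14* did not pass (−0.76, adjusted p = 0.119), with a median of −2.51. *Adamts5*, an aggrecanase that also cuts decorin and biglycan, had 263, 351.7 and 37.9 in tumors, against 2363.9, 7965.3 and 4722.3 in control glands (log2 fold change −4.74, adjusted p = 0.00402). As for *Ogn* and *Lum*, tumor 3 was far the lowest. *Htra1*, a secreted serine protease, had a log2 fold change of −2.86, the gelatinase *Mmp2* −2.57 and the stromelysin *Mmp3* −2.51. *Bmp1*, the procollagen proteinase that also trims the biglycan precursor, was at the threshold (−1.73, adjusted p = 0.0499) and did not pass in 5 of 6 fits with 1 array left out.

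The enzymes that build the sugar chains follow by the part of the chain they make. Of 6 tested enzymes of the linker that joins a chain to its core, 1 was lower and 1 higher. *Ugdh*, which makes the glucuronic acid donor, differed by −1.30 on the log2 scale (adjusted p = 0.00544), *B3galt6*, which adds a galactose of the linker, 1.15 (adjusted p = 0.0295; the call was lost in 4 of 6 fits with 1 array left out), *B4galt7* 0.03 and *B3gat3* −0.06 (adjusted p = 0.930 and 0.915). Of 13 enzymes of chondroitin and dermatan sulfate, the chains of decorin and biglycan, 4 were lower and none higher, with a median of −0.83. *Dse*, the epimerase that turns chondroitin into dermatan sulfate, had 191.6, 146.8 and 43.5 in tumors, against 458.3, 848.7 and 802.2 in control glands (log2 fold change −2.60, adjusted p = 0.00875). The sulfotransferases *Chst12*, *Chst11* and *Ust* had −2.06, −1.80 and −1.67, of which *Chst12* and *Ust* were not called without control gland 2 or control gland 3, and *Ust* also without control gland 1. *Chpf2* and *Csgalnact1*, of chain growth, had −0.22 and −0.28 (adjusted p = 0.586 and 0.563). The number of lower genes in this list was 2 without control gland 2 or 3, and 7 without tumor 1.

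Of 5 tested enzymes of keratan sulfate, the chain of lumican and fibromodulin, 1 was lower and 1 higher. *Chst1*, which sulfates its galactose, had 318.1, 143.2 and 169.6 in tumors, against 2243.8, 2633.4 and 3371.8 in control glands (log2 fold change −3.78, adjusted p = 0.000431). The groups were far apart. *B4galt1*, a galactosyltransferase used for many glycans, had 1.09 (adjusted p = 0.0165, and 0.0501 without control gland 2), *B4galt4* −0.31 and *B3gnt2* −0.22 (adjusted p = 0.642 and 0.597).

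The members also bind growth factors and receptors. Of 9 tested growth factors that small proteoglycans bind, 3 were lower, 2 higher and 4 did not pass, with a median of −0.49. *Igf1*, the growth factor secreted by stroma and liver, had 238.5, 229.1 and 68.7 in tumors, against 3744.2, 9092.9 and 4394.1 in control glands (log2 fold change −5.09, adjusted p = 0.000852), with tumor 3 again the lowest. *Bmp2* and *Bmp4* had −2.40 and −1.92 (adjusted p = 0.000825 and 0.00315), *Bmp4* having passed the filter through the control glands alone. *Ccn4*, a Wnt-induced matricellular protein known to bind decorin and biglycan, was at least 3.03-fold higher, with 116.8, 252.6 and 118.1 in tumors, against 13.2, 37.3 and 11.3 in control glands (adjusted p = 0.00969), and passed through the tumors alone. *Ccn2* had 0.22 and *Tgfb3* −0.85 (adjusted p = 0.685 and 0.283). The number of higher growth factors was 0 without tumor 1 or tumor 2 and 1 without any other array, and the median was 0.03 without control gland 1, −0.07 without control gland 3 and −0.97 without tumor 3. Of 10 tested receptors, 4 were lower and none higher, with a median of −0.26. *Lrp1*, the endocytic receptor that takes up decorin, had −3.08 (adjusted p = 0.00152), *Kdr*, a VEGF receptor of endothelium, −2.13 (adjusted p = 0.00167), *Tgfbr2* −1.28 (adjusted p = 0.0127) and *Egfr* −0.94 (adjusted p = 0.0269; the call was lost in 4 of 6 fits with 1 array left out). *Tlr4* and *Tlr2*, the receptors of free biglycan, had −0.02 and −0.05 (adjusted p = 0.962 and 0.936). Without control gland 3, 2 receptors were lower. The median of the receptors was −0.01 without control gland 1, −0.70 without control gland 2 and −0.41 without tumor 1.

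**Figure D5:**
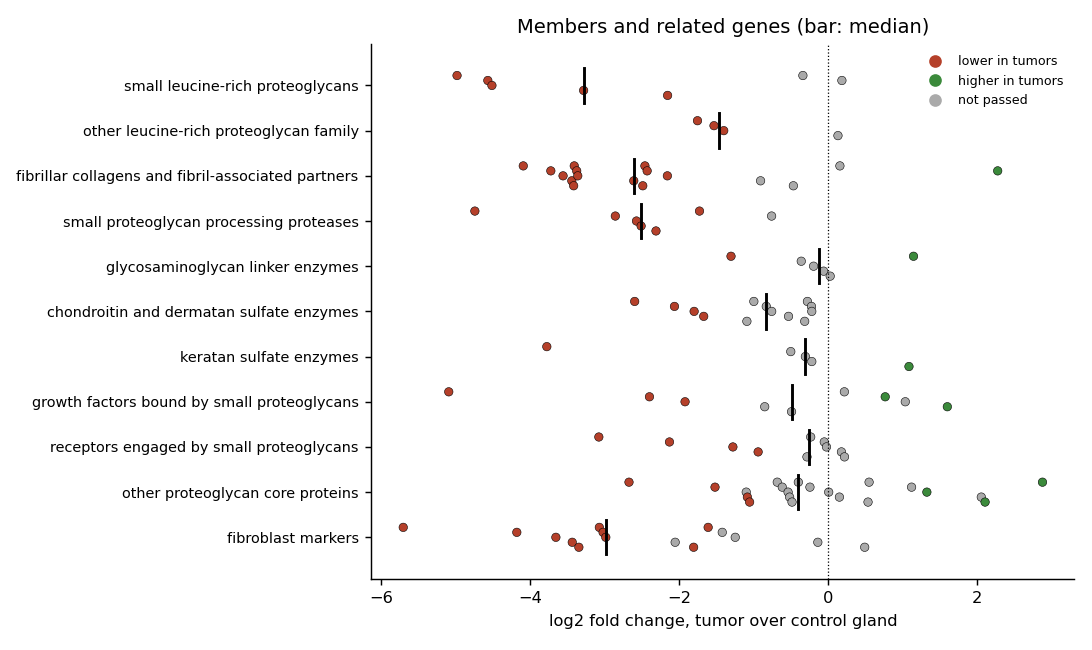
Log2 fold change of tumors over control glands for each tested gene of the small leucine-rich proteoglycans and of 10 related lists, 1 point per gene, with a bar at each list's median and the color giving the call. The members' median is −3.28. That of the fibroblast markers is −2.99, and −2.05 without *Clec3b* and *Twist2*, which passed the filter through the control glands alone. The medians of the linker and keratan sulfate enzymes lie near 0.

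Most of the tested fibroblast markers were lower in the same tumors. Among 15 tested fibroblast markers 10 were lower, none higher, and 5 did not pass, with a median of −2.99. Of the lower ones, *Clec3b* and *Twist2* passed the filter through the control glands alone, and without them the median was −2.05. *Dpt*, the dermatopontin of fibroblast matrix, had a log2 fold change of −5.71, *Pdgfra*, a receptor that marks fibroblasts, −4.18, *Gpx3* −3.66 and *Clec3b* −3.44, while *Tcf21* had −0.14 and *Dpp4* 0.49 (adjusted p = 0.709 and 0.523). The summed signal of the fibroblast markers was 3038.5 to 8896.2 in tumors, against 37768.5 to 41934.7 in control glands, and that of the tested members 2220.1 to 7351.9 in tumors, against 43507.1 to 50740.7 in control glands. A sum is weighted to its brightest probe sets, so the sums of different lists cannot be set against each other. In control glands *Dcn* (18379.4 to 24976.8) and *Prelp* (9591.4 to 16130.5) were the largest parts of the members' sum. No fibroblast marker had a signal of 0 on the arrays, but without detection calls this does not show that its transcript was present. The number of lower fibroblast markers was 5 without control gland 3 and 6 without control gland 1. Adipocyte markers were lower in 8 of 8 tested cases (median −6.33, summed signal 1570.4 to 11194.2 in tumors, against 125398 to 164444 in control glands), endothelial markers in 7 of 9 (median −1.87) and macrophage markers in 4 of 6 (median −1.75). Of the lower endothelial markers, 1 passed the filter through the control glands alone, and without it the median was −1.71. Pericyte and smooth muscle markers had 1 lower and 2 higher of 8, but only 0 to 1 higher with 1 array left out. The higher ones were *Acta2* and *Cnn1*. The paper uses α-smooth muscle actin, the product of *Acta2*, as a marker of myoepithelial cells. Skeletal muscle markers had 0 of 8 called by limma (2 at an unadjusted p under 0.05), with sums that ran from 553.4 to 39789.7 in tumors, against 7498.5 to 191238 in control glands. The part of these cell types in the values of the members was not tested.

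Signals of different probe sets have no common scale, but the distance between the mean log2 signals of 2 lists can be compared between arrays. The mean of the members exceeded that of the fibroblast markers by 1.30, 0.96 and 0.63 in tumors, against 1.17, 1.50 and 1.20 in control glands. Tumor 1 lay among the control glands by this measure, and the other two tumors below them. Against the collagen list the excess was 0.018, 1.02 and 0.244 in tumors, against 1.27, 0.516 and 0.957 in control glands. By that measure tumor 2 lay among the control glands and the other two tumors below them, so which tumor stood with the control glands differed between the lists. The means used values after the floor of 50, which raised, among others, *Ogn* in tumor 3 and *Tnxb* in each tumor. *Tnxb*, *Clec3b* and *Twist2* were in these lists through the control glands alone. How far the floor and the filter set the place of the tumors was not tested.

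Over the 6 arrays, the mean centred log2 profile of the 7 tested members was most like that of 6 genes outside the family: *Vim* (Pearson r 1.00), the intermediate filament gene of mesenchymal cells, *Crot*, *Jam2*, *Abcc4*, *Arhgap24* and *Crip1*, each with r of at least 0.998 (the 6 points are 2 groups of 3 arrays, and 540 of 12518 genes, 4.31%, had r of 0.95 or more). *Vim* had 7059.4, 5309.9 and 2843.6 in tumors, against 16208, 17635.7 and 18624.3 in control glands (log2 fold change −1.88, adjusted p = 0.00628). Its tumors were in the same order as the members' mean, with tumor 3 lowest, which follows from its choice by that likeness. Each member is itself part of that mean, so its own r with it is not independent. The members' own r with that mean was 0.995 for *Lum*, 0.97 for *Ogn*, 0.96 for *Dcn*, 0.95 for *Prelp* and for *Bgn*, 0.50 for *Aspn* and 0.15 for *Fmod*.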

How the data were processed

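RNA of 3 mammary tumors and 3 control mammary glands was hybridized to Affymetrix M430 2.0 arrays. The authors computed 1 linear intensity per probe set by MAS 5.0 (version not given in the sources used here) and deposited it after scaling to a target of 500, which is the trimmed mean found on each array. Detection calls went unused. Without 64 control probe sets, 45037 of 45101 remained. In the platform annotation 34945 probe sets had 1 gene symbol, 932 had several and 9160 were unnamed here.

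A floor of 50 was set before log2, probe sets reaching 100 on 3 or more arrays were kept, and the one with the highest mean was taken per gene. Groups were compared in R 4.3.3 with limma 3.58.1 (lmFit, eBayes; 2-sided, Benjamini-Hochberg over all 12518 genes, threshold 0.05, 95% intervals). Where each sample of a group lay below 50, a fold is a lower bound. Precision is limited by the number of arrays, and no exact permutation p of 3 against 3 samples lies below 0.1. The limma fit and the adjustment were tested on simulated log2 values with independent normal noise and far fewer changed genes than were called here. That setting differs from the data, so it does not check the calls themselves. The floor, the filter and the choice of probe set were not simulated.

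The members, the 18 gene lists (200 of 209 symbols matched) and the tests were chosen with earlier results of these data known. Named are the members, the other family genes, up to 4 called genes of each list with the largest change and up to 2 with the highest adjusted p, the 6 genes with the most similar profile, and *Apc*. The alternatives were other floors, scalings, filters and gene summaries, a variance trend, the replicate block, each array left out, a fold limit, and the t-test of the study's methods. Exact permutation tests between 4 pairs of members, the count of genes that passed the filter through 1 group alone and the naming of *Col11a1* were added after the data were seen. Sequences came from RefSeq.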

Additional observations from a re-analysis of the deposited data

How the results depend on the processing

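The 5 lower members kept their direction under each of the 19 alternatives run for them. With no filter 4 were called, as *Bgn* did not pass (adjusted p = 0.0751). With 1 array left out 4 to 5 were called, as *Bgn* was lost without tumor 2. By the methods' t-test 5 were called at the study's thresholds and 0 after Benjamini-Hochberg adjustment (5 at an unadjusted p under 0.05). Over all genes that t-test called 920 lower and 685 higher at those thresholds, and 73 lower and 67 higher after adjustment. A 2-fold limit left 1329 higher genes, against 2045 without it. With 1 array left out, 1151 to 2012 genes were lower and 1241 to 1545 higher among the 11879 to 12231 that passed the filter. Member probe sets called lower numbered 9 to 10 in those fits. With 1 array left out, the log2 fold change of *Fmod* was −0.46 to 0.54 and that of *Aspn* −0.80 to 0.16, so their direction turned. With equal array medians the median of all genes was 0.31, against 0.07, and 64.5% of called genes were higher, against 49.4%. The members' median was then −3.05, and the median of the linker enzymes turned to 0.11. The replicate block called the same number of members, 5, with 1860 lower and 1630 higher genes. The labels give same-numbered samples only a shared number. Their deviations from the group means correlated at −0.222, 0.021 and 0.038. As the deviations in a group of 3 sum to 0, this cannot show whether samples were paired. In the related lists, 4 to 9 endothelial, 2 to 4 macrophage, 0 to 3 pericyte and smooth muscle and 0 to 6 skeletal muscle markers were lower with 1 array left out (lowest without control gland 3 for endothelium, and 6 muscle markers without tumor 1). With no filter, 4 of the collagen list were lower, against 13, as were 1 enzyme of chondroitin and dermatan sulfate, against 4, 6 fibroblast markers, against 10, 4 endothelial markers, against 7, and 1 macrophage marker, against 4. With 1 array left out, list medians were −0.51 to 0.05 for keratan sulfate enzymes, −0.25 to −0.03 for linker enzymes and −0.15 to 0.34 for pericyte and smooth muscle markers. By the methods' t-test at the study's thresholds 4 of the collagen list, 2 enzymes of chondroitin and dermatan sulfate, 3 proteases, 1 receptor and 6 fibroblast markers were lower.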

Other observations

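Proteoglycans outside the leucine-rich family did not move one way. Among 21 tested core proteins there were 4 lower and 3 higher, and 14 did not pass, with a median log2 fold change of −0.40. *Esm1*, endocan of activated endothelium, had 472.1, 394.6 and 266.5 in tumors, against 32.6, 40.3 and 32.6 in control glands, and was at least 7.35-fold higher (adjusted p = 0.000416 from limma), but it passed the filter on low signals through the tumors alone. *Sdc1*, the syndecan of epithelial surfaces, differed by 2.11 on the log2 scale (adjusted p = 0.00556), with each tumor above each control gland. *Srgn*, serglycin of blood cell granules, had −2.67 (adjusted p = 0.00263) and *Cspg4*, a surface proteoglycan of pericytes, −1.52 (adjusted p = 0.00685). *Sdc2* had 0.01 and *Gpc4* 0.15 (adjusted p = 0.986 and 0.743). Without control gland 3, 2 of the list were lower. The median was −0.17 without tumor 3, and 0.08 with the filter at 200.

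Of 4 tested markers of cartilage, tendon and bone, the tissues from which *Fmod*, *Aspn* and *Omd* are best known, 1 was called. *Col9a1*, a fibril-associated collagen of cartilage, had 1446.4, 2122.7 and 3220.5 in tumors, against 360.8, 18.3 and 873.4 in control glands (log2 fold change 3.10, adjusted p = 0.0414). Each tumor stood above each control gland, but the call was lost in 4 of 6 fits with 1 array left out. *Sp7* and *Alpl* had 0.38 and −0.66 (adjusted p = 0.327 and 0.229).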
